A study of Mus musculus with 4 samples.

Results

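The genes described here encode the proteins of the cytosolic ribosome. They were taken from 2 deposited tables as every row whose symbol begins with Rpl or Rps and a digit, with Rplp0, Rplp1, Rplp2 and Rpsa added and with the symbols ending in -ps and the Rps6k kinases left out. The rule found 86 genes among the 22440 rows of the bulk and mammosphere table and 81 among the 11708 rows of the hairpin table. Of the 86, 46 were core proteins of the large subunit, 31 were core proteins of the small subunit, 8 were paralogs (close relatives of a core gene) and 1, Rps19bp1, encodes a protein that binds Rps19 and is no part of a ribosome. The hairpin table held 45, 31, 4 and 1 of these. The rows of Rpl13a, Rpl30 and Rpl34 also hold other symbols, among them the pseudogenes Gm12191 (with Rpl30) and Rpl34-ps1 (with Rpl34). The levels given for these members are those of the whole row.

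Polyadenylated RNA came from 4 cultures of MMTV-Myc cells, a mouse mammary tumour line that carries Myc under the promoter of the mouse mammary tumour virus, with 1 library in each group. Bulk cells (day 0, wild type) were kept with serum and insulin, and mammosphere cells (day 20, wild type) were kept as floating spheres with EGF, bFGF and a supplement and no serum named in their medium. The other 2 libraries came from cells infected with lentivirus and selected in puromycin, one with a control hairpin (wild type, shLuc in one label and shScr in another) and one with hairpin sh68 against Cbx8. The sources used here do not give whether the hairpin cultures were attached or floating. All 4 groups share the Myc transgene, and the knockdown rests on 1 hairpin. The design sets mammosphere against bulk cells and Cbx8 knockdown against control cells.

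A ribosome is built from a small subunit, which decodes the messenger RNA, and a large subunit, which joins amino acids and holds the tunnel through which the new chain leaves. Ribosomal proteins are made in matched amounts, and their messenger RNAs commonly start with a run of pyrimidines, the 5′ TOP motif, through which mTOR signalling sets their translation. Myc is known to raise the transcription of ribosomal protein genes and of the factors that build ribosomes, and Cbx8 is a chromodomain subunit of Polycomb repressive complex 1. Ribosomal protein genes have also left many processed pseudogenes, intronless copies scattered over the genome.

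To show how close such copies are, 60 coding bases (bases 31 to 90 of the coding sequence) are given for 3 members beside a near copy, from GENCODE M21 transcripts on GRCm38, with capitals at the bases that differ within a pair. Rpl11 (minus strand, chr4:136052634-136052693) differed from the processed pseudogene Gm10288 (minus strand, chr3:146839258-146839317) at 1 base, G56A, counted from the first base shown. Rpl10a (plus strand, chr17:28328836-28328976, across an intron) and the processed pseudogene Rpl10a-ps1 (minus strand, chr1:64994515-64994574) had no difference. Rpl36a (plus strand, chrX:134586105-134586164) and its paralog Rpl36al (minus strand, chr12:69183047-69183106) differed at 8 bases.
Rpl11: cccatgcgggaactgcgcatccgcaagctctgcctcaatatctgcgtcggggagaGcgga
Gm10288: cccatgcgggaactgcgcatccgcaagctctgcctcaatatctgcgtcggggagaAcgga
Rpl10a: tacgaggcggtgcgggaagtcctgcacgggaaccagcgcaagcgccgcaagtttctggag
Rpl10a-ps1: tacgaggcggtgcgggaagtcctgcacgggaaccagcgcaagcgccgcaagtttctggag
Rpl36a: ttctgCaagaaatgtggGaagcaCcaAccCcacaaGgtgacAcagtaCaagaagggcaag
Rpl36al: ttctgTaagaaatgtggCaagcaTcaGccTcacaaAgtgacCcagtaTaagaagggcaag
Over the whole coding part Rpl36a and Rpl36al shared 282 of 321 bases (87.9%). A 100-base read, the length given in the labels' protocols, that falls in such a stretch can match more than 1 place, and the sources used here do not give how the authors assigned such reads. The level of each member below is therefore uncertain to the degree that its sequence is shared.

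Levels are FPKM, a count of fragments divided by transcript length and by sequencing depth, as the authors deposited them. Each group is 1 library, so every difference compares 2 libraries with no replicate check. The files hold no counts, so the depth is unknown. Cbx8 itself was at 4.74 FPKM with the control hairpin and 1.23 FPKM with sh68, a plain ratio of 3.84, and at 3.46 and 1.48 FPKM in the bulk and mammosphere libraries. Epithelial identity was checked on 7 markers, whose FPKM added up to 936 in bulk and 73.1 in mammosphere cells, and to 416 and 418 in control and knockdown cells, where 6 had a row. The near-equal sums hide differences between markers. Of the 4 with at least 1 FPKM in either hairpin library, 2 were higher and 2 lower in the knockdown. One was 2-fold higher, at 1.09 FPKM in the control and 10.5 FPKM in the knockdown, against 0.262% of all rows. Krt8 was at 334, 5.14, 63.2 and 79.3 FPKM in the 4 libraries in that order and Krt18 at 570.4, 58.2, 261 and 256 FPKM, while Epcam and Cdh1 were at 1.06 FPKM or below in all 4. Myc was at 815, 361, 511 and 301 FPKM in the same order.

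In the bulk library the core members had a median of 593 FPKM (0.367 to 3386, 77 genes). Their median was 410 FPKM (0.231 to 3035) in the mammosphere library. The hairpin libraries ranged from 0.320 to 2181 FPKM around a median of 51.7 in control cells and from 0.210 to 1988 around 43.7 after knockdown (76 genes). On the log2(FPKM + 1) scale the SD across core genes was 1.84 and 1.92 in the first table and 3.01 in both libraries of the second. The 2 tables were normalized separately, so levels are set side by side and no fold is taken across them.

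**Figure D1:**
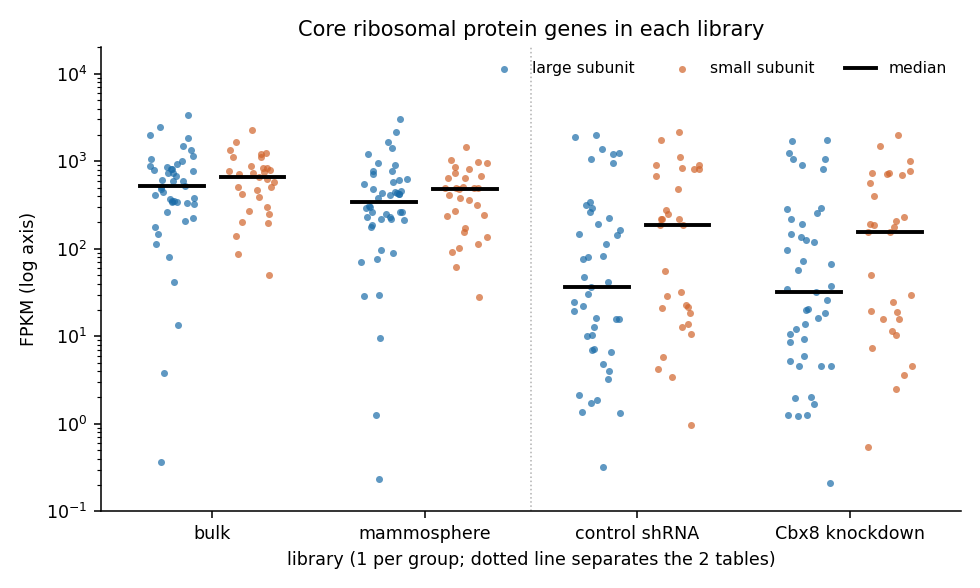
Each point is 1 core ribosomal protein gene, with FPKM on a log axis, grouped by library and by subunit, and the bar is the median. Most points of the bulk and mammosphere libraries (70 and 65 of 77) lie at 100 FPKM or more, whereas those of the control and knockdown libraries reach from under 1 to over 1000 FPKM.

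The members' share of all FPKM was 12.2% in bulk cells, 12.0% in mammosphere cells, 5.56% in control cells and 4.79% after knockdown. Large subunit genes had a median of 517 FPKM and small subunit genes 662 FPKM in the bulk library, and 342 and 479 FPKM in the mammosphere library. The gap between the subunits was wider in the hairpin table, at 36.2 against 187 FPKM in the control and 32.0 against 156 FPKM in the knockdown. Summed FPKM of the large over the small subunit was 1.46, 1.60, 1.02 and 1.03 in the bulk, mammosphere, control and knockdown libraries.

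By the mean FPKM of the bulk and mammosphere libraries, 70 members were at 100 or more, 10 at 10 to 100, 1 (Rpl21) at 1 to 10 and 5 under 1. The 5 were Rpl29 and the paralogs Rpl10l, Rpl39l, Rpl3l and Rps4y2. Rpl10l and Rpl39l are known from testis and Rpl3l from muscle. Rpl10l was listed at 0 in both libraries and Rpl39l at 0.0755 and 0. Rpl3l was at 0.0722 and 0.0852 FPKM and Rps4y2 at 0.266 and 0.00416 FPKM. Rpl29, a core protein, was at 0.367 FPKM in bulk and 0.231 FPKM in mammosphere cells and had no row in the hairpin table.

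Among the highest large subunit genes of that table were Rplp1 (3386 FPKM in bulk, 3035 in mammosphere cells), Rplp0 (2448 and 1678), Rpl41 (1996 and 2134) and Rpl8 (1866 and 1423). Among the highest of the small subunit were Rps4x (1651 and 985), Rps14 (1222 and 1024), Rps18 (1126 and 965) and Rps15 (1232 and 860). The lowest core genes of the small subunit were Rps2 (49.8 and 28.2), Rps15a (87.6 and 62.4) and Rps12 (139 and 102), and of the large subunit Rpl21 (3.83 and 1.25) and Rpl7a (13.3 and 9.64) followed Rpl29. Proteins of both subunits enter a ribosome once each, apart from the stalk proteins, yet the listed levels of their genes spanned several orders of magnitude.

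A mean of 100 FPKM or more in the hairpin table was found for 36 members, while 26 lay at 10 to 100, 17 at 1 to 10 and 2, Rpl17 and Rps18, under 1. Large and small subunits had 18 genes each in the highest class, but 13 large and 4 small subunit genes were at 1 to 10 FPKM. Rplp1 (2014 FPKM in the control, 1769 in the knockdown), Rpl8 (1913 and 1717), Rpl41 (1396 and 1240), Rpl32 (1253 and 1061) and Rpl4 (1217 and 1052) led the large subunit. Rps21 (2181 and 1988), Rps20 (913 and 777) and Rps9 (900 and 722) were among the highest of the small one.

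Many members with high levels in the first table had low levels in the second. Of the 70 members in the class of 100 FPKM or more in the bulk and mammosphere table, 34 were in that class in the hairpin table, 21 were at 10 to 100, 14 at 1 to 10 and 1 under 1. Rpl3, which lies near the peptidyl transferase centre, was at 808 and 448 FPKM in the bulk and mammosphere libraries and at 1.85 and 1.27 FPKM in the control and knockdown libraries. Rps18, a protein of the small subunit head, was at 1126, 965, 0.971 and 0.543 FPKM in that order. Rpl28 was at 598, 414, 1.72 and 1.68 FPKM.

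Others that stood 2 classes or more lower were Rpl10, Rpl10a, Rpl11, Rpl12, Rpl17, Rpl24, Rpl27, Rpl34, Rpl5, Rpl9, Rps12, Rps13 and Rps27, so that 16 members did so in all. Rpl10 (351 and 211 FPKM against 2.11 and 1.99), which joins the large subunit late, and Rpl10a (782 and 427 against 3.28 and 2.01) were among the farthest apart. Rps13 stood at 297 and 236 against 10.7 and 7.38 FPKM, and Rps27 at 198 and 157 against 5.78 and 4.55 FPKM. Only Rpl7a (13.3 and 9.64 against 227 and 194 FPKM) and the paralog Rps27l (98.3 and 61.9 against 547 and 491 FPKM) were in a higher class in the hairpin table.

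Of 71 members at 100 FPKM or more in the bulk library, 13 (18.3%) were under 10 FPKM in the control library. The same held for 28 of 646 other rows (4.33%). In this paragraph other rows are only those with a row in both tables. Rows with no level listed in the hairpin table are not counted, so 4.33% may be too low. Across 79 members the log2 levels in the bulk and control libraries had Pearson's r of 0.45 and Spearman's rho of 0.57. Across 10326 other rows r was 0.83 and rho 0.84, and across the 643 of them at 100 FPKM or more in bulk, a narrower range of levels, r was 0.28 and rho 0.31. These are descriptions across genes, which share the libraries and the normalization and are not independent replicates.

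Members differed in how much of their sequence occurs in another gene. For each member 1 GENCODE M21 transcript was cut into windows of 100 bases, and a window that touches the coding part was called shared when it occurs without mismatch in a transcript of a gene at another locus, on either strand. The median over 77 core members was 51.0% of windows, with 6 genes at 0 and 40 at 50% or more. Genes of the mitochondrial ribosome, a set of similar small proteins, had a median of 0, with 64 of 76 at 0 and 1 at 50% or more. Rps27 had the highest share at 98.4%, most of it with Rps27rt, and Rpl5, Rpl10 and Rps12 were also above 90%. Rps3, Rps21, Rpl22, Rpl32 and Rpl41 were among those that shared none. Rpl21 shared windows with 39 annotated pseudogenes, Rpl7a with 36, Rps2 with 34 and Rpl29 with 23.

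Levels in the hairpin table were lower the larger that share. The 11 core genes with under 10% of windows shared had a median of 1217 FPKM in the control library, and all 11 were at 100 FPKM or more. The 26 genes at 10 to 50% had a median of 220.2 FPKM, with 17 at 100 or more and 0 under 10. The 39 genes at 50% or more had a median of 13.9 FPKM, with 6 at 100 or more and 16 under 10. In the bulk library the medians of the same classes were 928, 744 and 414 FPKM, and 11 of 11, 25 of 26 and 34 of 40 genes were at 100 FPKM or more.

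**Figure D2:**
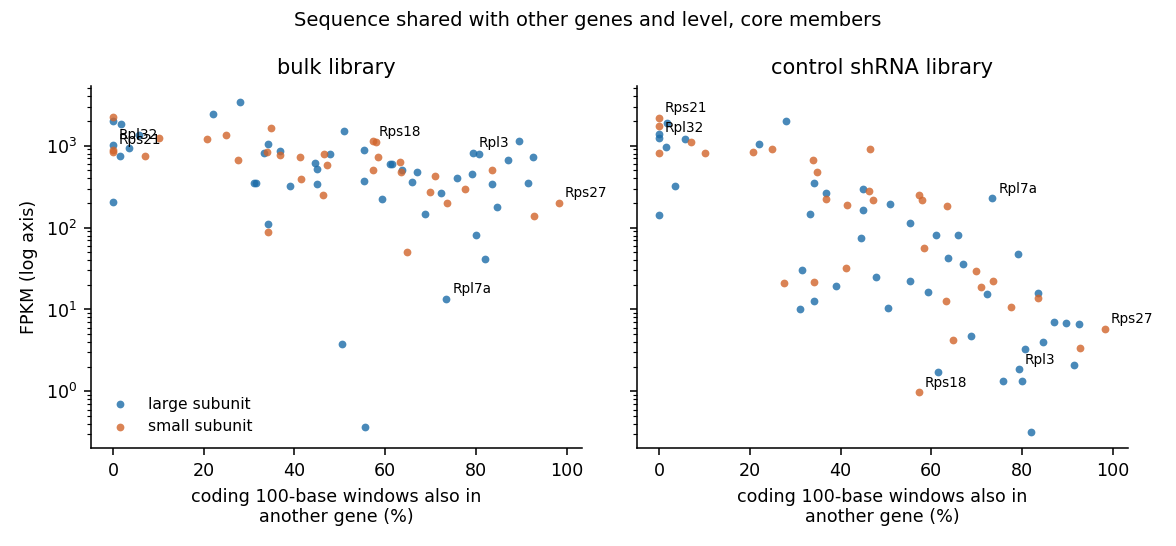
Each point is 1 core gene, with the share of its coding 100-base windows that occur in another gene on the x axis and FPKM on a log y axis, in the bulk library (left) and the control shRNA library (right). Levels drop steeply to the right in the control library (r of −0.78 over 76 genes) and less in the bulk library (r of −0.37 over 77 genes).

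Pearson's r between the share and the log2 level was −0.37 in bulk cells, −0.36 in mammosphere cells, −0.78 in control cells and −0.79 after knockdown, and Spearman's rho was −0.51, −0.47, −0.77 and −0.77. With windows over the whole transcript, the measure computed first, r was −0.33 in the bulk and −0.69 in the control library. Windows that touch the coding part were chosen afterwards because some transcript models have long untranslated ends. Of the 16 members that stood 2 or more classes lower in the hairpin table, 15 shared 50% or more of their windows. The exception was Rpl34 at 31.0%, whose row also holds the pseudogene Rpl34-ps1. Of the 40 members whose class was the same throughout, 6 did. Rpl7a went the other way, with 73.5% shared and a higher class in the hairpin table. The part of read assignment in these levels was not tested.

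Of the paralog pairs, Rpl36a and Rps27 stood low in the hairpin table beside a paralog with less shared sequence. Rpl22 and Rpl22l1 did not show this, nor did Rpl7 and Rpl7l1. Rpl7, with 34.1% of its windows shared against 3.53% for Rpl7l1, had a mean of 100 FPKM or more in both tables. Rpl36a was at 339 and 299 FPKM in the bulk and mammosphere libraries and at 15.9 and 13.8 FPKM in the control and knockdown libraries, with 83.6% of its windows shared. Rpl36al, with 30.8% shared, was at 260.0, 219, 184 and 187 FPKM. Rps27 stood above Rps27l in the first table (198 against 98.3 FPKM in bulk) and below it in the second (5.78 against 547 FPKM in the control), and Rps27l shared none of its windows. Rpl22, which shared none of its windows, was at 207 FPKM in bulk and 143 FPKM in control cells, and Rpl22l1, with 40.6% shared, at 89.0 and 103 FPKM. The coding sequences of Rps27 and Rps27l were the same at 194 of 255 bases (76.1%). Excluded pseudogene rows also carried signal: Rplp2-ps1 was at 1394, 1257, 1097 and 917 FPKM in the 4 libraries and Rps19-ps3 at 114, 44.5 and 0.969 FPKM in the bulk, mammosphere and control libraries.

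Most ribosomal protein genes had lower listed levels in mammosphere than in bulk cells, 77 of 81 as deposited and 63 or 69 of 81 with the libraries scaled in 2 other ways. Changes are given as log2((FPKM + 1)/(FPKM + 1)), mammosphere over bulk, for the 81 members with at least 1 FPKM in either library. The added 1 makes differences of low genes look smaller than they are. The median was −0.60 (quartiles −0.80 and −0.34), against −0.24 over all 11630 rows with that minimum. Below 0 were 77 of 81 members, against 65.2% of all rows, and 13 were 2-fold lower, against 17.2% of all rows. None was 2-fold higher (3.55% of all rows), and 42 were 1.5-fold lower (30.7% of all rows).

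The direction of the median held, and its size did not, under both other scalings that were tried. The median of the 10171 rows at 1 FPKM or more in both libraries was −0.19, and relative to it the members' median was −0.41, with 69 below 0, 12 above and 6 that were 2-fold lower. Of all rows 53.3% were then below 0 and 13.3% were 2-fold lower. With equal upper quartiles the median was −0.28, with 63 below 0, 18 above and 4 that were 2-fold lower, while the median of all rows was then 0.05, with 47.2% of them below 0 and 13.4% 2-fold lower. The members' share that was 2-fold lower was thus below that of all rows under both scalings, as it was for the deposited levels. The summed FPKM of all rows was 448025 in bulk cells and 322787 in mammosphere cells, and that of the members was 54464 and 38851. The members thus made up nearly the same share of both sums, 12.2% and 12.0%. A scaling to equal sums, under which the members' sum would hardly differ between the libraries, was not tried. In bulk samples, fewer cells of a type and less RNA per cell cannot be told apart.

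Leukocyte and fibroblast markers moved in the same direction. The summed FPKM of 15 leukocyte markers was 468 in bulk and 8.66 in mammosphere cells. All 15 were lower by 2-fold, against 17.2% of all rows, and 4 were at 0 in the mammosphere library. For 12 fibroblast markers the sums were 605 and 4.85 FPKM, with 2 at 0 in the mammosphere library, and for 4 endothelial markers 5.63 and 0.240 FPKM. The epithelial markers moved with them, from 936 to 73.1 FPKM. Of the 6 that had at least 1 FPKM, 4 were lower by 2-fold, against the same 17.2% of all rows. The part of other cell types, that of the lower epithelial markers and that of the lower Myc level, in the members' difference was not tested.

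Both subunits had similar medians. The value was −0.59 over 48 large subunit genes, of which 44 were below 0 and 7 were 2-fold lower, and −0.62 over 32 small subunit genes, of which 32 were below 0 and 5 were 2-fold lower. Of all rows 65.2% were below 0 and 17.2% were 2-fold lower, so neither subunit had a larger share of 2-fold lower genes than all rows. With equal upper quartiles 36 of the 48 and 26 of the 32 were below 0, against 47.2% of all rows. The 13th gene, Rps19bp1, was at 16.6 and 7.60 FPKM. By level, the 10 members at 10 to 100 FPKM and the 70 at 100 or more both had a median of −0.60. Rpl21, the single member at 1 to 10 FPKM, was at −1.10. Among the 70 members of the highest class 67 were below 0, against 77.9% of all rows in that class, and 9 were 2-fold lower, against 22.7%. The 546 other rows of that class had a median of −0.43 and a far wider range (−8.22 to 5.27) than the members (−1.33 to 0.16).

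**Figure D3:**
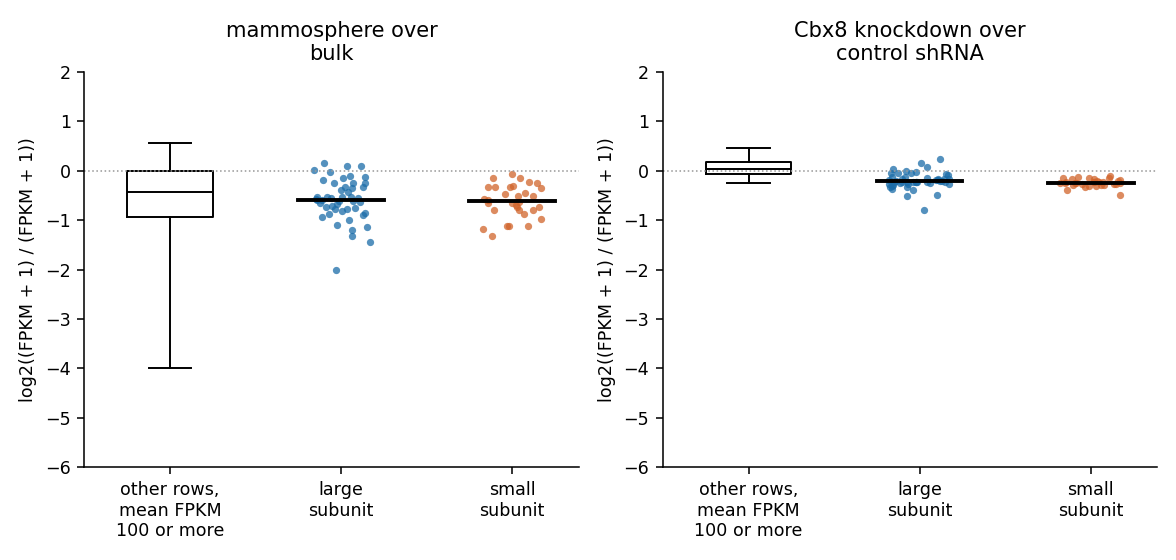
Points are single ribosomal protein genes by subunit with the median as a bar, and the box gives the quartiles of other rows with a mean of 100 FPKM or more, its line their median and its whiskers the 5th and 95th percentiles. The y axis is the log2 change within each table. Members lie mostly below 0 on both sides (medians −0.59 and −0.62 left, −0.21 and −0.24 right), with the right side packed far more closely.

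Individual members ranged from −2.00 to 0.16. Rpl22l1 (mm9 chr3:28704432-28706337), the paralog of Rpl22, was at 89.0 FPKM in bulk and 21.4 FPKM in mammosphere cells, 4.15-fold lower as a plain ratio and the farthest apart of the 81 members over the minimum of 1 FPKM. Rpl22 itself (mm9 chr4:151699986-151708180) was at 207 and 89.4 FPKM, 2.32-fold lower, so that both genes of this pair were among the 6 largest differences. Rpl22l1 is known to be able to take the place of Rpl22 in the large subunit.

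Rpl23a, at the exit of the peptide tunnel, was at 81.3 and 29.4 FPKM, and Rpl24, which forms a bridge to the small subunit, was at 177 and 69.7 FPKM. Rps20, a small subunit head protein (mm9 chr4:3761619-3762747), was at 785 and 315 FPKM, 2.50-fold lower as a plain ratio. Rps25, known for its part in initiation at internal ribosome entry sites, was at 391 and 171 FPKM. Further members lower by 2-fold were Rpl32 (1012 and 456 FPKM), Rps19 (251 and 114), Rps3a (585 and 270) and Rpl23 (616 and 306). Apart from Rps19bp1 and Rpl21, each of the members lower by 2-fold was at 81.3 FPKM or more in the bulk library.

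Rps27a encodes ubiquitin joined to a small subunit protein (mm9 chr11:29445841-29478352) and was at 201 FPKM in bulk and 92.4 FPKM in mammosphere cells. In the authors' deposited table Rps27a (q = 0.0316) and Rpl22l1 (q = 0.0489) were the members with q under 0.05, 2 of the 78 that the authors tested, whereas 10.2% of all tested rows were lower, and 1.73% higher, at that q in the authors' deposited table. The authors' test was run on 1 library per group.

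**Figure D4:**
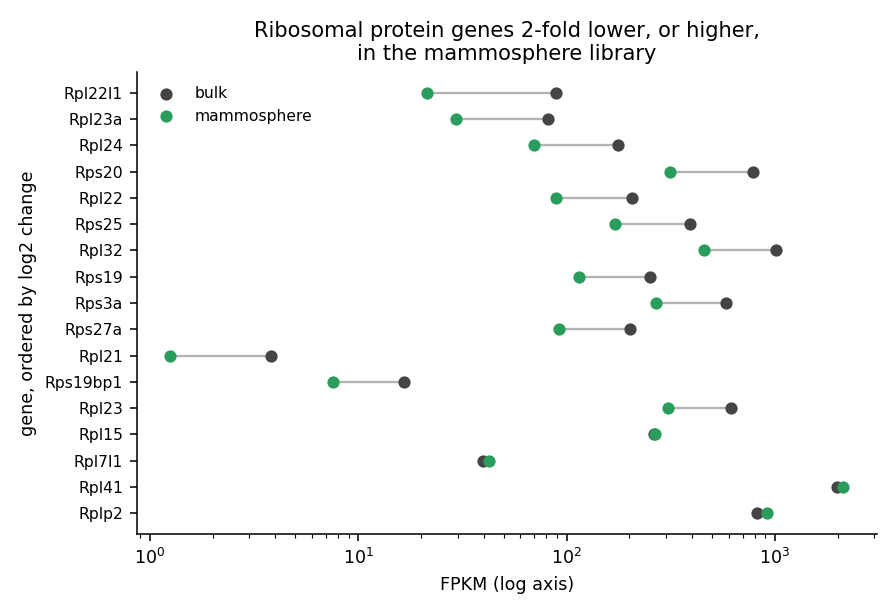
Paired points give FPKM in the bulk and mammosphere libraries on a log axis for the 13 members that were 2-fold lower and the 4 above 0, ordered by log2 change. The lines of the first 13 all run to the left from bulk to mammosphere, while the 4 others hardly move.

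The members above 0 were Rplp2 (820.0 FPKM in bulk and 917 FPKM in mammosphere cells), Rpl41 (1996 and 2134), Rpl7l1 (39.9 and 42.5) and Rpl15 (264 and 265). All 4 also lay above 0 under both other scalings. Rpl31 (225 and 220.5 FPKM) and Rps29 (662 and 636 FPKM) were next, at −0.03 and −0.06, and moved above 0 under both. The proteins Rplp0, Rplp1 and Rplp2 form the stalk that recruits elongation factors. Rplp0 was at 2448 and 1678 FPKM (−0.54), Rplp1 at 3386 and 3035 FPKM (−0.16) and Rplp2 at 0.16, so the stalk genes differed in sign, and Rplp1 was above 0 under both other scalings.

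The groups of members in this paragraph are read against 65.2% of all rows below 0 and 17.2% 2-fold lower, and against 77.9% and 22.7% of the rows with a mean of 100 FPKM or more. Rpl5 and Rpl11, which carry the 5S ribosomal RNA into the large subunit and can bind Mdm2, were at 737 and 582 FPKM (−0.34) and at 406 and 262 FPKM (−0.63). Of 7 genes whose proteins line the tunnel exit all were below 0 (median −0.54, from −1.44 for Rpl23a to −0.03 for Rpl31), although 3 of the 7 were above 0 with equal upper quartiles. All 13 genes of the small subunit head were below 0 (median −0.52), 3 of them by 2-fold, and 10 of 13 were with equal upper quartiles. The 9 genes listed for Diamond-Blackfan anaemia, an inherited failure of red cell production caused by defects in ribosomal proteins, had a median of −0.63, with Rps19 the lowest at −1.12, and all 9 were below 0 under each scaling.

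Core genes with a short transcript model lay closer to 0 in this comparison. Lengths are those of 1 GENCODE M21 transcript per gene, and some of these have long untranslated ends. Rps15a was at 5179 nt with 393 coding bases and Rps20 at 3706 nt with 360. The length class of a gene therefore depends on the model chosen, which may differ from the transcript measured. The 12 core genes with a transcript under 500 nt had a median of −0.17, the 40 at 500 to 1000 nt −0.63 and the 24 at 1000 nt or more −0.69 (r of −0.19 and rho of −0.29 between length and change over 76 genes). Among other rows with a mean of 100 FPKM or more and a matched transcript (498 of 546), the medians in the same classes were −0.36 (5 rows), −0.16 (87 rows) and −0.45 (406 rows). The share of windows found in other genes had nearly no relation to the change (r of −0.03, rho of −0.02). The 22 members with a small nucleolar RNA row at their locus had a median of −0.74 and the 59 others −0.54.

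**Figure D5:**
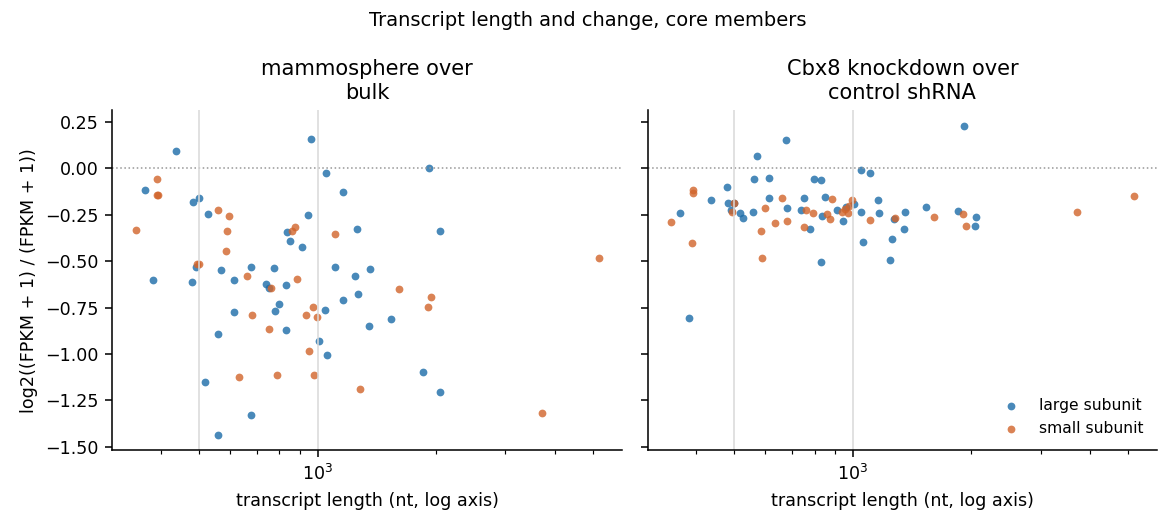
Each point is 1 core gene, with the length of its GENCODE M21 transcript model on a log x axis and the log2 change on the y axis. Mammosphere over bulk is on the left and Cbx8 knockdown over control on the right, with grey lines at 500 and 1000 nt. Some models have long untranslated ends. On the left the 12 transcripts under 500 nt lie between −0.61 and 0.10 (median −0.17), and on the right the 3 length classes have medians of −0.21, −0.22 and −0.24.

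After Cbx8 knockdown the members were slightly lower than in the control library. Over the 79 members with at least 1 FPKM in either library the median log2 change was −0.23 (quartiles −0.27 and −0.16), a 1.17-fold difference, against −0.01 over all 10670 rows. Below 0 were 75 of 79 members, against 51.2% of all rows. None was 2-fold lower (0.394% of all rows) or 2-fold higher (0.262%), and 1 was 1.5-fold lower (2.12%). Among rows with a mean of 100 FPKM or more 0.605% were 2-fold lower. Centring on the median row gave −0.22 with 75 below 0, and equal upper quartiles gave −0.26 with 76 below 0.

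The differences lay close together. The interquartile range over the members was 0.110, against 0.279 over all rows. Among the 36 members at 100 FPKM or more, 35 were below 0, against 42.9% of all rows at that level, and their interquartile range was 0.060 around a median of −0.23. The 791 other rows at that level had a median of 0.04 and an interquartile range of 0.229. Members at 1 to 10 FPKM (17 genes) and at 10 to 100 FPKM (26 genes) both had a median of −0.22. The interquartile range of the first class was wider, at 0.270, and within it the 13 large subunit genes had a median of −0.10 and the 4 small subunit genes −0.31. With a pseudocount of 5 FPKM the medians from the lowest to the highest of these 3 classes were −0.13, −0.18 and −0.23. The 2 members under 1 FPKM, Rpl17 and Rps18, are in none of them. In the authors' deposited table the q of every member was 0.999218, and 0.077% of all tested rows were lower, and 0.128% higher, with q under 0.05 in the authors' deposited table.

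All 31 small subunit genes with enough signal were below 0 (median −0.24, from −0.48 to −0.12), under each scaling tried. Of 47 large subunit genes 43 were (median −0.21, from −0.81 to 0.23). The stalk genes were close to each other here: Rplp0 was at 1054 FPKM in the control and 896 FPKM in the knockdown, Rplp1 at 2014 and 1769 FPKM and Rplp2 at 146 and 127 FPKM, changes of −0.23, −0.19 and −0.21. Rpl5 (6.70 and 5.22 FPKM) and Rpl11 (1.35 and 1.25 FPKM) were low in both libraries.

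Rpl36, a small protein of the large subunit, stood apart at 22.1 and 12.2 FPKM (−0.81). Further large differences among members with at least 10 FPKM were those of Rps13 (10.7 and 7.38 FPKM, −0.48), Rps29 (20.9 and 15.6 FPKM, −0.40), Rpl23 (75.6 and 57.3 FPKM, −0.39) and Rpl13 (47.5 and 37.7 FPKM, −0.33). Above 0 were Rpl15 (15.6 and 18.5 FPKM), Rpl24 (4.00 and 4.57 FPKM), Rpl30 (19.2 and 20.2 FPKM) and Rpl36al (184 and 187 FPKM), the last of which was below 0 with equal upper quartiles. Close to 0 were Rpl31 (16.2 and 16.1 FPKM), Rps19bp1 (43.3 and 42.8 FPKM) and Rpl34 (10.0 and 9.32 FPKM). Only Rpl15 was above 0 in both comparisons, at 0.00 and 0.23. The paralogs were at −0.12 (Rpl22l1, 103 and 94.3 FPKM), −0.13 (Rpl7l1, 81.6 and 74.4 FPKM), −0.16 (Rps27l) and 0.02 (Rpl36al). Rpl22, at 143 and 119 FPKM, was at −0.26.

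Across the 79 members with both values, the changes in the 2 comparisons had r of 0.01 and rho of 0.07, so their order in one comparison told little of their order in the other. Rpl22l1, the farthest from 0 in the first comparison, was at −0.12 in the second. Few markers of other cells had a row in the hairpin table, and no level is listed for the rest. For leukocytes 3 of 15 had a row, with a sum of 27.8 FPKM in the control and 41.6 FPKM in the knockdown, nearly all of it Cd14. For fibroblasts 6 of 12 had a row, with sums of 63.9 and 76.5 FPKM, mostly Fbln2. Of the 3 fibroblast markers with at least 1 FPKM, 1 was above 0 and 2 were below 0 (51.2% of all rows). Those 2 were 1.5-fold lower (2.12% of all rows), so the sum does not give the direction of most of them.

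Genes that work with the ribosome were read beside the members. Ribosome parts with other symbols include Fau (a ubiquitin-like protein joined to a small subunit protein) and Gnb2l1 (the scaffold Rack1), which were at 626 and 345 and at 2307 and 1677 FPKM in bulk and mammosphere cells. In the control and knockdown libraries they were at 58.6 and 61.0 and at 1511 and 1305 FPKM. Fau thus had a low level in the hairpin table, as many members did, and Gnb2l1 had a high one.

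The lists that follow are read against a median of −0.24 over all rows in the first comparison, with 65.2% below 0 and 17.2% 2-fold lower, and of −0.01 in the second, with 51.2% below 0. With equal upper quartiles 47.2% and 58.4% of all rows were below 0. Non-ribosomal genes with a TOP messenger RNA, such as translation elongation factors and snoRNA hosts, had medians of −0.67 for mammosphere over bulk (19 of 21 below 0, 2 of them 2-fold lower) and −0.18 for knockdown over control (19 of 21 below 0). Snhg1 was at 116 and 40.9 FPKM in bulk and mammosphere cells, Eif3e at 128 and 51.3 FPKM and Eif4b at 252 and 132 FPKM. Npm1 was at 477 and 374 FPKM in the control and knockdown libraries, and Eef2, the factor that moves the ribosome along, at 1448 and 1194 FPKM. With equal upper quartiles 19 and 21 of the 21 were below 0. Initiation factors had medians of −0.29 (22 of 32 below 0) and −0.01 (16 of 31), the first of which was 0.02 with equal upper quartiles. That list leaves out Eif3e and Eif4b, which are counted among the TOP genes, so the gap between the 2 lists depends in part on this choice. The mitochondrial ribosome had medians of −0.15 (44 of 76 below 0, none 2-fold lower) and 0.00 (38 of 75), and the first turned positive under both other scalings (0.04 centred, 0.15 at equal upper quartiles).

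Genes that make ribosomes are read against the same shares of all rows, 65.2% below 0 and 17.2% 2-fold lower in the first comparison and 51.2% below 0 in the second. Nucleolar factors had medians of −0.26 (27 of 34 below 0, 4 of them 2-fold lower) and −0.15 (29 of 34), and RNA polymerase I subunits and factors had medians of −0.34 (10 of 14) and −0.15 (11 of 14). In mammosphere over bulk, equal upper quartiles moved these medians to 0.05 and −0.04. Taf1d, a factor of RNA polymerase I initiation, was at 43.0 and 12.0 FPKM in bulk and mammosphere cells (q = 0.00211 in the authors' deposited table), while Polr1b, a catalytic subunit of the polymerase, was at 16.6 and 37.9 FPKM. Polr1b was at 40.2 and 32.2 FPKM in the control and knockdown libraries. Wdr12, a large subunit assembly factor, was at 24.4 and 18.1 FPKM there and Nop16 at 51.4 and 39.1 FPKM. These lists were chosen with earlier results of these data known and are given as counts and medians only.

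Since most members lay on the same side of 0, their start sites were read for the pyrimidine run of a TOP messenger RNA. RefSeq starts on GRCm38.p6 were matched for 57 core genes, and the longest run of C and T on the sense strand was taken in the 30 bases from 15 before to 15 from the start. A run of at least 8 was found at 26 of 67 core starts (38.8%), against 12.0% of all 32851 starts and 9 of 73 starts of mitochondrial ribosomal protein genes (12.3%). Examples with a run that spans the start are given first and 2 without a run of 8 last, with the longest run in capitals. Rpl28 lies at chr7:4792950-4792979 (plus strand), Rps18 at chr17:33955651-33955680 (minus), Rps6 at chr4:86857353-86857382 (minus), Rpl38 at chr11:114668565-114668594 (plus), Rplp0 at chr5:115559452-115559481 (plus) and Rps16 at chr7:28350674-28350703 (plus).
Rpl28: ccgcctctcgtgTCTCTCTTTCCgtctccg
Rps18: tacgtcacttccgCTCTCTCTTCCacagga
Rps6: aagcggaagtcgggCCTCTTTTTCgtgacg
Rpl38: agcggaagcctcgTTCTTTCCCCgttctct
Rplp0: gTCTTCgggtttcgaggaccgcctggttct
Rps16: cccgCTTCTgtcgtgacgtagcactcaatg
Core genes with such a run had a median change of −0.53 (25 genes) for mammosphere over bulk and those without −0.65 (32 genes). For knockdown over control the medians were −0.21 (24 genes) and −0.24 (32 genes). A run is a match of letters near an annotated start, and its absence says only that these letters are not in the window. Some of the runs counted, such as those of Rpl13 and Rpl4, lie wholly before the start and so outside the annotated messenger RNA.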

How the data were processed

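The authors deposited 2 Cuffdiff tables of FPKM per gene, 1 per pair of libraries, with a q-value per row that is quoted as theirs. Reads were handled with TopHat 1.4.0 on mm9, Cufflinks 1.3.0, Cuffdiff (listed as 0.0.7) and FastQC 0.10.0, per the submitters' processing notes. Per the labels' protocols, reads were 100 nt and single-end. The sources used here do not give the settings or how reads with several matches were handled, and depth is unknown.

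Changes were computed as log2((FPKM + 1)/(FPKM + 1)) for rows with at least 1 FPKM in either library, and the limit for a called difference was 2-fold. With 1 library per group no test was run and no p-value computed. Level classes used the mean of a table's 2 libraries, with bounds at 1, 10 and 100 FPKM. Left out of the hairpin table were 15 rows with a value of exactly 1 and no statistic. Cuffdiff status was OK for 78 of 86 and 81 of 81 members.

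Members and lists were chosen with earlier results of these data known. Named genes were the 6 largest changes each way per table (10 FPKM or more), the 5 highest and 5 lowest per subunit, paralogs, stalk and 5S genes, members with q under 0.05 in the authors' deposited table, members 2 or more level classes apart and up to 4 genes per other list, and any further gene was chosen after its values were seen. Shared windows and start sites came from GENCODE M21 and RefSeq on GRCm38, with 1 transcript per gene (linked to a RefSeq messenger RNA, APPRIS principal, longest coding part, then shortest), 85 of 86 members matched, and genes that overlap a member left out as sources. Mouse chromosome 18 sequences are not shown. Fold calls were checked on deposited levels with known changes put in and no noise added, which tests the arithmetic and not the reliability of a call. Window matching was checked on random sequences with copied stretches. Python 3.11.15, pandas 2.3.3, numpy 2.4.6, scipy 1.17.1 and matplotlib 3.10.9 were used. Alternatives were other pseudocounts, minimums, scalings, row filters and fold limits. Some genes that the naming rule takes in are not reported here.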

Additional observations from a re-analysis of the deposited data

How the results depend on the processing

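Of 146 recomputed values 128 stayed within 0.1 on the log2 scale, or within 1.5 times for counts, 18 moved and 0 changed sign. The 146 include counts, which cannot change sign. They leave out the medians of the other gene lists, some of which did change sign for mammosphere over bulk when the libraries were rescaled. For mammosphere over bulk, centring on the median row gave medians of −0.41 for the members, −0.41 for the large and −0.43 for the small subunit, and −0.91, −0.41 and −0.41 for the classes at 1 to 10, 10 to 100 and 100 FPKM or more, with 6 members 2-fold lower. Equal upper quartiles gave −0.28, −0.27 and −0.30, then −0.91, −0.35 and −0.28, with 4 members 2-fold lower. The class at 1 to 10 FPKM, which is Rpl21 alone, was at −1.54 with a pseudocount of 0.1 FPKM and −0.50 with 5 FPKM. A fold limit of 1.5 gave 42 lower members in the first and 1 in the second comparison. These moves follow from how the alternatives are built. No paired analysis was possible because each group has 1 library. With no counts and no replicates, neither sampling error nor biological spread can be given for any member, and the sources used here do not state how reads with several matches were assigned, so the part of read assignment in the levels of members that share sequence was not tested.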
